A study of Homo sapiens with 15 samples.

Results

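Amino acid transporters of the cell surface were studied in LNCaP cells as 10 genes chosen by name: SLC43A1, SLC43A2, SLC7A5, SLC3A2, SLC7A11, SLC1A5, SLC1A4, SLC38A1, SLC38A2 and SLC7A1. All 10 were among the 17272 genes of the expression table. LNCaP, a line of human prostate cancer cells, grows in response to androgen. The cells were starved of steroids for 2 days in medium with charcoal-stripped serum and were then treated for 22 h. By the sample labels, 5 libraries came from cells given 1 nM R1881, a synthetic androgen, with 2 µM darolutamide, an antiandrogen drug (the combination), and 10 libraries came from cells given 1 nM R1881 with the DMSO vehicle. The methods of the paper state the group sizes the other way round and R1881 in µM rather than nM, and the groups here follow the labels. Both groups received R1881, so the comparison is between androgen with and without darolutamide in 1 cell line, and cells without R1881 were not analysed here.

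The transporters of these families carry amino acids across the plasma membrane by facilitated diffusion, by sodium-coupled uptake or by exchange of one amino acid for another. Exchangers such as SLC7A5 and SLC1A5 depend on an inward supply of exchange substrates, among them glutamine brought in by the sodium-coupled SLC38 carriers. Leucine and arginine that enter the cell are read by the mTORC1 kinase complex, and shortage of amino acids induces many transporter genes through the transcription factor ATF4. In prostate cancer cells SLC43A1 is known as a gene that responds to androgen.

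The libraries held 21870398 to 25317567 reads on genes with the combination and 15830745 to 24316740 reads with R1881. Mitochondrial genes took 3.12% to 3.94% of reads with the combination and 2.65% to 3.02% with R1881, and the 20 most abundant genes took 7.33% to 8.12% with the combination and 6.47% to 6.80% with R1881. Neither share overlapped between the groups, and their part in the transporter values was not tested. The deposited values, called CPM (reads scaled to library size) by the authors, were whole reads divided by 1 factor per library, and differences are given as log2 fold changes of CPM + 0.5, the combination over R1881, with limma's trend test and p adjusted over all 17272 genes. The androgen-induced genes checked the labels: FKBP5 averaged 152 ± 11.1 CPM with the combination and 1502 ± 87.4 CPM with R1881 (SD, n = 5 and 10). KLK3, which encodes PSA, averaged 615 ± 55.9 CPM with the combination and 1588 ± 209 CPM with R1881. Of the listed androgen-induced genes 7 of 7 were lower, against 23.7% of all genes. The list was chosen with earlier results of these data known, so it is no independent check. All 7 luminal prostate markers were in the table. Of markers of other cell types, 1 of 4 basal, 1 of 4 neuroendocrine, 1 of 4 endothelial and 3 of 6 fibroblast genes were in the table. KRT14, the basal gene, was lower, at 0.528 to 0.878 CPM with the combination and 0.706 to 1.44 CPM with R1881 (log2 fold change -0.43, adjusted p = 0.00846). SYP, the neuroendocrine gene, was at 0.802 to 1.64 CPM with the combination and 1.32 to 2.10 CPM with R1881 and did not pass (-0.25, adjusted p = 0.0765). The 3 fibroblast genes (COL1A1, COL3A1 and LUM) were each higher with the combination and summed to 13.5 to 30.6 CPM with the combination and 6.36 to 10.5 CPM with R1881. VWF, the endothelial gene, was at 3.56 to 4.10 CPM with the combination and 2.08 to 2.84 CPM with R1881. By the labels every library is of the LNCaP line, and whether cells of other types were present, or had a part in the transporter values, was not tested. Fewer cells of a type and less RNA per cell cannot be told apart in bulk RNA. Combination replicates 3 and 4 and R1881 replicate 6 stood apart from their groups in a manner tied to GC content: the slope of their deviation on GC was -0.23, 0.35 and 0.23 on the log2 scale per 10% GC. The labels also number the libraries in runs, 86 to 90 for the combination and 51 to 55 and 71 to 75 for R1881, so that treatment and run cannot be told apart.

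With the combination 6 of the 10 transporters were lower, 0 were higher and the other 4 did not pass the test. Across all 17272 genes, 23.7% were lower, 22.8% were higher and 46.6% passed in either direction. At an unadjusted p under 0.05, and in edgeR and DESeq2 on the recovered reads, 0 of 10 were higher as well, while 2 were higher after a correction for GC content and 1 without combination replicate 3. Their log2 fold changes had a median of -0.29, against 0.00 over all genes. For 5 transporters the combination and R1881 values did not overlap and the combination lay below, which was true of 12.6% of all genes, and for 0 transporters it lay wholly above, against 10.8% of all genes. The 6 lower genes were SLC43A1, the neutral amino acid carriers SLC1A5, SLC1A4, SLC38A1 and SLC38A2, and the arginine carrier SLC7A1. The 4 others were SLC43A2, SLC7A5 and SLC7A11, and the heavy chain SLC3A2 that SLC7A5 and SLC7A11 need to reach the membrane.

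**Figure D1:**
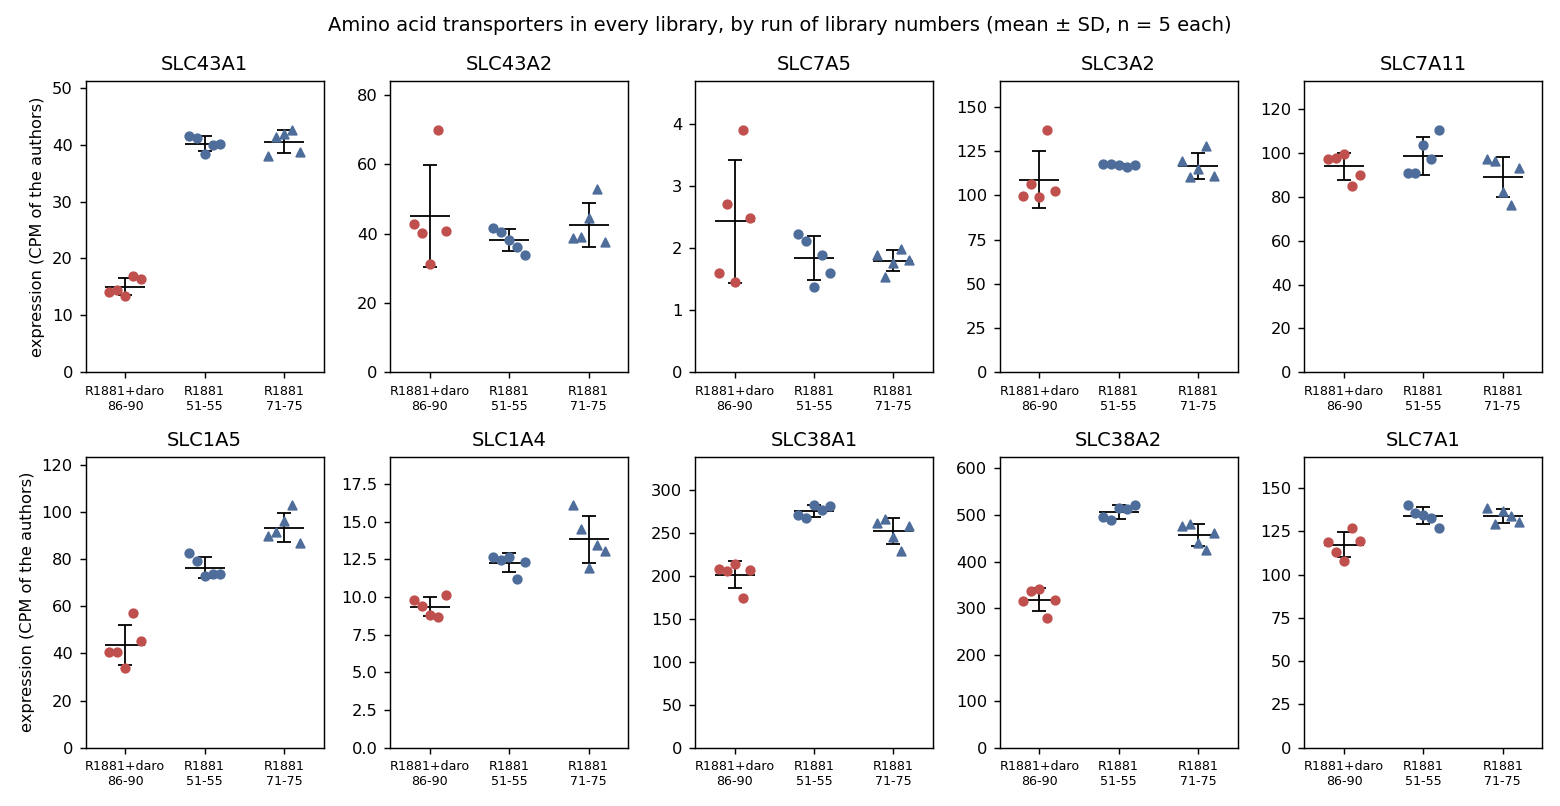
Expression in CPM (y axis, from 0) of each transporter in each library, with the 5 combination libraries (R1881+daro) left of the R1881 libraries of runs 51-55 and 71-75; bars are mean ± SD, n = 5 each. SLC43A1 lay at 13.4 to 16.9 CPM in the combination libraries and at 38.1 to 42.7 CPM in the R1881 libraries, while SLC43A2, SLC7A5, SLC3A2 and SLC7A11 overlapped between the treatments.

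SLC43A1 (LAT3) is a facilitated carrier of leucine, isoleucine, valine, phenylalanine and methionine that needs neither sodium nor an exchange partner, and SLC43A2 (LAT4) is its close paralogue. They lie on different chromosomes, SLC43A1 at chr11:57484534-57515780 and SLC43A2 at chr17:1569268-1628886, both on the minus strand of GRCh38 (GENCODE version 44). The stretches before their canonical starts are shown because these paralogues differed in response by more than the other pairs of paralogues. They are RefSeq sequence on GRCh38.p14, from chr11:57515781-57515952 and chr17:1628887-1629084 on the minus strand, trimmed to bases outside annotated exons, and capitals mark an E-box (CACGTG), a motif of several basic helix-loop-helix factors.
SLC43A1: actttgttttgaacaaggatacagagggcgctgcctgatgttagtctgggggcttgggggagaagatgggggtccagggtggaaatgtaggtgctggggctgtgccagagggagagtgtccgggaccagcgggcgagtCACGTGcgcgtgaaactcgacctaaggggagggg
SLC43A2: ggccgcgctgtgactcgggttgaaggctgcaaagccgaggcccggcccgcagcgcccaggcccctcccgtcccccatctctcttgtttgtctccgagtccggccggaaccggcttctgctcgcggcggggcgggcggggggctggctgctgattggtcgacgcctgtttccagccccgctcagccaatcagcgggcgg
The E-box of SLC43A1 begins at -112 from the start, and the SLC43A2 stretch holds none of the 4 motifs searched. In the 250 bases before the start, CACGTG occurs in 6.34% of 35116 promoters. Neither stretch holds AGAACA, the half-site of the androgen response element, which occurs in 12.4% of promoters. These are matches of letters in 1 window and say nothing of binding.

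SLC43A1 measured 14.2, 14.5, 13.4, 16.9 and 16.3 CPM in the combination libraries, against a lowest of 38.1, a median of 40.7 and a highest of 42.7 CPM in the R1881 libraries. The groups were far apart, with all combination libraries below the R1881 range, and the spread within each group was small beside the gap. The means were 15.1 ± 1.47 CPM with the combination and 40.4 ± 1.61 CPM with R1881 (SD, n = 5 and 10), a log2 fold change of -1.40 (SE 0.05, 95% interval -1.51 to -1.29, adjusted p = 1.96e-13). Expression with R1881 was 2.68 times that with the combination, and by log2 fold change SLC43A1 was the 198th lowest of all genes. The 2 runs of R1881 libraries averaged 40.2 and 40.6 CPM, and the log2 fold change was -1.39 against 51 to 55 alone and -1.40 against 71 to 75 alone.

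SLC43A2 measured 42.7, 40.2, 31.3, 70.0 and 40.6 CPM in the combination libraries, against a lowest of 33.7, a median of 38.8 and a highest of 52.7 CPM in the R1881 libraries. The groups overlapped, and the 70.0 CPM of combination replicate 4 was the highest of all 15 libraries. The log2 fold change was 0.12 (95% interval -0.17 to 0.40, adjusted p = 0.514), and it was -0.06 (adjusted p = 0.643) without combination replicate 4. After a correction for GC content it was 0.16 with an adjusted p of 0.0493. The direction for SLC43A2 thus turned with 1 library, and either value was small beside the change of SLC43A1. The per-library log2 ratio of SLC43A1 to SLC43A2 averaged -1.50 ± 0.32 with the combination and 0.01 ± 0.14 with R1881, a difference of -1.51 (exact two-sided permutation test over 3003 regroupings, adjusted p over 6 pairs = 0.00133). The unadjusted p of 0.000666 was the smallest these group sizes allow.

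SLC7A5 (LAT1, chr16:87830023-87869507, minus strand) imports leucine and other large neutral amino acids in exchange for intracellular ones, and it works as a dimer with the heavy chain SLC3A2 (4F2hc or CD98, chr11:62856004-62888880, plus strand). The dimer is the main leucine importer of many tumours. SLC7A5 was the least expressed of the 10 genes, at 23 to 83 reads per library. It measured 1.60, 2.71, 1.45, 3.91 and 2.49 CPM in the combination libraries, against a lowest of 1.38, a median of 1.85 and a highest of 2.23 CPM in the R1881 libraries. Combination replicates 2, 4 and 5 were above the R1881 range and replicates 1 and 3 were within it. The log2 fold change was 0.28 (95% interval -0.04 to 0.61, adjusted p = 0.148). It was 0.41 (adjusted p = 0.0317) without combination replicate 3, 0.12 (adjusted p = 0.477) without combination replicate 4 and 0.31 (adjusted p = 0.0189) after the correction for GC content. Of the 50-base words of its canonical transcript, 4.08% also occur in other genes, mainly the pseudogenes SLC7A5P2 and SLC7A5P1, and an unnamed gene overlaps its exons, so a part of its few reads is of uncertain origin. Such shared words made up 4.24% of SLC43A2 and 0.948% of SLC7A11, whose exons also overlap SLC7A11-AS1, and 0% of the other transporters.

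SLC3A2 measured 99.8, 106, 98.9, 137 and 102 CPM in the combination libraries, against a lowest of 110.2, a median of 117 and a highest of 128 CPM in the R1881 libraries. Combination replicates 1, 2, 3 and 5 all lay below the R1881 range, and replicate 4 lay above it. With all libraries the log2 fold change was -0.11 (95% interval -0.24 to 0.02, adjusted p = 0.146). Without combination replicate 4 the mean was 102 ± 3.31 CPM with the combination (n = 4), the log2 fold change was -0.20 and the adjusted p was 2.13e-04, a setting in which 27.7% of all genes were lower. The call for SLC3A2 thus rested on 1 library. The per-library log2 ratio of SLC7A5 to SLC3A2 averaged -5.28 ± 0.33 with the combination and -5.67 ± 0.15 with R1881, a difference of 0.39 (exact permutation test, adjusted p = 0.0192), which did not pass without combination replicate 2 or 5 (adjusted p = 0.0575 each). The ratio of SLC7A5 to SLC43A1 averaged -2.47 ± 0.37 with the combination and -4.15 ± 0.15 with R1881, a difference of 1.68 (exact permutation test, adjusted p = 0.00133). SLC7A5 and SLC43A1 thus moved apart, and the fall of SLC43A1 accounts for most of that difference in size.

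SLC7A11 (xCT, chr4:138164097-138242349, minus strand) exchanges glutamate for cystine, the precursor of cysteine for glutathione, and also pairs with SLC3A2. It measured 97.5, 97.7, 99.8, 85.2 and 89.9 CPM in the combination libraries, against a lowest of 76.2, a median of 94.8 and a highest of 111 CPM in the R1881 libraries. Every combination library lay within the R1881 range. The log2 fold change was 0.01 (95% interval -0.14 to 0.15, adjusted p = 0.956), so that a change of more than 0.15 on the log2 scale in either direction lay outside the interval. The log2 fold change was -0.07 against R1881 libraries 51 to 55 alone and 0.08 against 71 to 75 alone. For the ratio of SLC7A11 to SLC3A2 the difference was 0.12 (exact permutation test, adjusted p = 0.352), and without combination replicate 4 it was 0.24 (adjusted p = 0.0144).

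**Figure D2:**
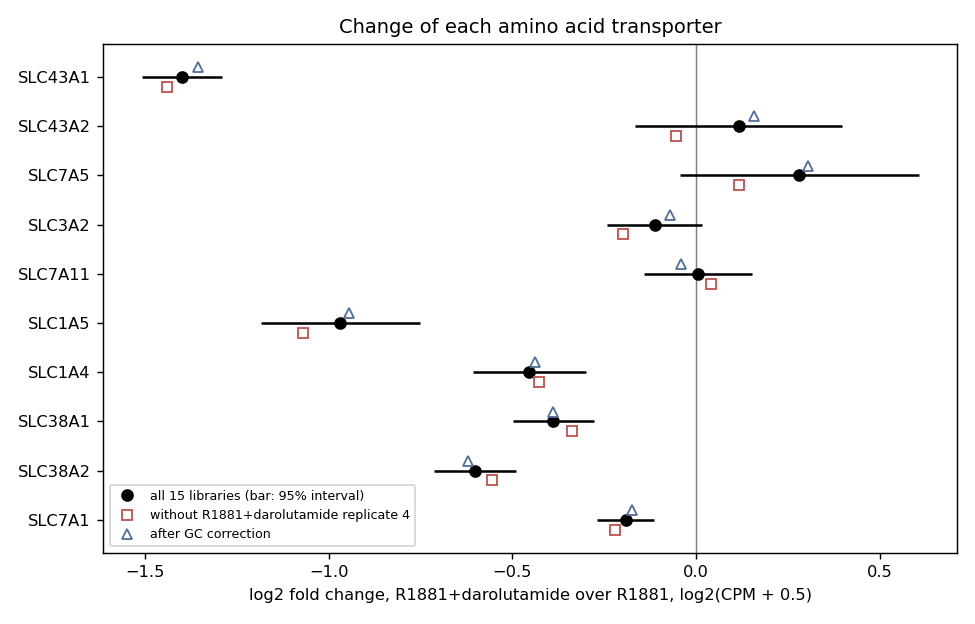
Log2 fold change of CPM + 0.5 (x axis), the combination over R1881, for each transporter, with 95% intervals from limma over all 15 libraries, without combination replicate 4 and after a GC correction. SLC43A1 (-1.40) and SLC1A5 (-0.97) lie farthest to the left, and SLC43A2 is at 0.12 with all libraries and at -0.06 without combination replicate 4.

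SLC1A5 (ASCT2, chr19:46774883-46788594, minus strand) is a sodium-dependent exchanger of glutamine and other small neutral amino acids, and its paralogue SLC1A4 (ASCT1, chr2:64988477-65023865, plus strand) prefers alanine, serine, cysteine and threonine. SLC1A5 measured 40.4, 40.5, 33.97, 57.0 and 45.5 CPM in the combination libraries, against a lowest of 72.8, a median of 84.6 and a highest of 103 CPM in the R1881 libraries. All combination libraries lay below all R1881 libraries, with replicate 4 the nearest to them. The means were 43.5 ± 8.57 CPM with the combination and 84.8 ± 10.3 CPM with R1881 (SD, n = 5 and 10), a log2 fold change of -0.97 (SE 0.10, adjusted p = 4.09e-07). Within R1881 the 2 runs differed by 0.29 on the log2 scale (71 to 75 minus 51 to 55, unadjusted p = 0.0101, adjusted p = 0.168). Of the 10 transporters, 3 differed between these runs at an unadjusted p under 0.05, against 16.6% of all genes, and 0 after adjustment, against 1.1% of all genes. The fold change was -0.82 against 51 to 55 alone and -1.11 against 71 to 75 alone. The run of the combination itself cannot be told apart from the treatment. Exons of 1 unnamed gene overlap SLC1A5, and the strand setting of the counting is not given in the sources used here.

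SLC1A4 measured 9.81, 9.38, 8.85, 8.68 and 10.1 CPM in the combination libraries, against a lowest of 11.2, a median of 12.7 and a highest of 16.1 CPM in the R1881 libraries. The groups did not overlap, although the gap between the highest combination library and the lowest R1881 library was narrow. The means were 9.37 ± 0.62 CPM with the combination and 13.1 ± 1.39 CPM with R1881, a log2 fold change of -0.45 (SE 0.07, adjusted p = 5.37e-05), from 184 to 331 reads per library. The log2 ratio of SLC1A5 to SLC1A4 averaged 2.14 ± 0.30 with the combination and 2.65 ± 0.16 with R1881, a difference of -0.51 (exact permutation test, adjusted p = 0.00599). SLC1A5 therefore fell further than SLC1A4.

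SLC38A1 (SNAT1, chr12:46183063-46270017) and SLC38A2 (SNAT2, chr12:46358188-46372773) are sodium-coupled importers of glutamine, alanine and other small neutral amino acids. They lie close together on the minus strand of the same chromosome. SLC38A1 measured 208, 205, 214, 174 and 207 CPM in the combination libraries, against a lowest of 229, a median of 266 and a highest of 282 CPM in the R1881 libraries. SLC38A2 measured 315, 336, 342, 278 and 317 CPM in the combination libraries, against a lowest of 425, a median of 485 and a highest of 521 CPM in the R1881 libraries. For both genes all combination libraries were below all R1881 libraries, and combination replicate 4 was the lowest of all. The log2 fold change was -0.39 for SLC38A1 (SE 0.05, adjusted p = 8.47e-06). That of SLC38A2 was -0.60 (SE 0.05, adjusted p = 4.01e-08). The log2 ratio of SLC38A1 to SLC38A2 averaged -0.66 ± 0.05 with the combination and -0.87 ± 0.02 with R1881, a difference of 0.21 (exact permutation test, adjusted p = 0.00133), so SLC38A2 fell further than SLC38A1. The R1881 runs differed in both, by -0.13 for SLC38A1 (unadjusted p = 0.0223) and by -0.15 for SLC38A2 (unadjusted p = 0.00883), and neither difference passed after adjustment (adjusted p = 0.226 and 0.160).

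SLC7A1 (CAT1, chr13:29509414-29595688, minus strand) is the general carrier of arginine and lysine. It measured 119, 113, 108, 126.93 and 119.7 CPM in the combination libraries, against a lowest of 126.85, a median of 134 and a highest of 140.1 CPM in the R1881 libraries. The groups touched only where combination replicate 4 passed the lowest R1881 library. The means were 117 ± 7.26 CPM with the combination and 134 ± 4.23 CPM with R1881, a log2 fold change of -0.19 (SE 0.04, adjusted p = 3.29e-04), the smallest of the 6 differences that passed.

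Promoter entries from RefSeq on GRCh38.p14 (250 bases before to 50 after the start) were found for 9 of the 10 transporters, 18 entries in all. TGATGNAA, an element that C/EBP-ATF dimers with ATF4 can bind, was searched on both strands. Within the 250 bases before the start it was in 1 of the 18 entries, at a second start of SLC1A5, and in 3.14% of all promoters. Over the whole 300 bases, a window searched after the first result was known, it was in 5 entries (SLC1A4, SLC1A5, SLC38A1, SLC3A2 and SLC7A1) and in 3.62% of all promoters. The 2 of these that lie at canonical starts are printed next with the element in capitals, from chr2:64989383-64989408 on the plus strand for SLC1A4, where the element is on the opposite strand, and from chr13:29595665-29595690 on the minus strand for SLC7A1.
SLC1A4: ggctcccgtTTGCATCAtctccagcc
SLC7A1: gcgcactgcTGATGAAAcctggcgcc
AGAACA was in 1 entry, at a second start of SLC38A1, at -146. CACGTG was in 3 entries (SLC43A1, SLC7A5 and SLC1A5), and the NRF2 element TGACNNNGC was in 3 (SLC7A1, SLC3A2 and SLC1A5) and in 10.9% of all promoters over the 250 bases. A match is a description of the letters only.

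Per kilobase of canonical transcript, expression with the combination ran from 66.2 CPM per kb for SLC38A2 to 0.534 CPM per kb for SLC7A5. SLC38A2 (58.0 to 71.2 CPM per kb) and SLC3A2 (52.5 to 72.8 CPM per kb) overlapped at the top of the combination libraries. They were followed by SLC38A1 at 24.9 CPM per kb, then by SLC7A1 (14.7 to 17.3 CPM per kb) and SLC1A5 (11.8 to 19.8 CPM per kb), which overlapped, and by SLC7A11 at 9.75 CPM per kb. With the combination SLC43A1 (5.34 to 6.71 CPM per kb) overlapped SLC43A2 (3.85 to 8.61 CPM per kb), and SLC1A4 was lower at 2.05 CPM per kb.

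With R1881 the order by length-scaled level was in part another. SLC38A2 (100.5 CPM per kb) and SLC3A2 (62.0 CPM per kb) no longer overlapped, SLC38A1 (28.2 to 34.8 CPM per kb) overlapped SLC1A5 (25.3 to 35.7 CPM per kb), and SLC43A1 (16.1 CPM per kb) stood above SLC7A11 (9.74 CPM per kb) and SLC43A2 (4.95 CPM per kb). SLC7A5, a leucine carrier of the exchanger type, was at 0.400 CPM per kb, below SLC43A1 and SLC43A2 in every library of both treatments. This holds for the 10 transporters only. Before length scaling SLC7A5 averaged 1.82 CPM with R1881, and SLC7A8, a light chain of SLC3A2 outside the 10, averaged 125 CPM.

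**Figure D3:**
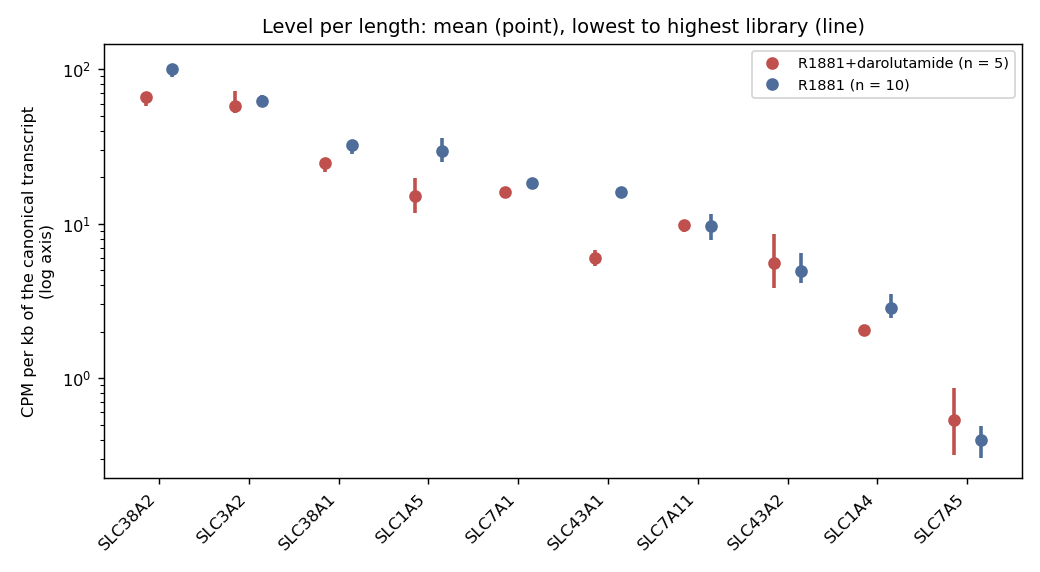
Expression per kilobase of canonical transcript (y axis, CPM per kb, log scale) with the combination (left point of each pair, n = 5) and with R1881 (right point, n = 10); points are means and lines run from the lowest to the highest library. SLC43A1 is at 5.99 CPM per kb with the combination and 16.1 CPM per kb with R1881, while SLC7A11 is at 9.75 CPM per kb with the combination and 9.74 CPM per kb with R1881.

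Some of the transporters also varied together, or against each other, within the groups, and the pairs named next are among the strongest. After the group means were removed, SLC38A1 and SLC38A2 correlated at 0.96 over the 15 libraries, and SLC38A2 and SLC7A11 at 0.86. SLC43A2 and SLC1A5 correlated at 0.87, while SLC1A5 ran against SLC38A2 at -0.93 and against SLC38A1 at -0.91. SLC1A4 correlated with the other transporters at only -0.19 to 0.26. These are descriptions over libraries that share depth, run and base composition. The canonical transcripts of SLC7A11, SLC38A2 and SLC38A1 had 35.4%, 37.4% and 41.3% GC, and those of SLC1A5 and SLC7A5 had 61.3% and 61.2%. In combination replicate 4 the deviation from the median of the other combination libraries ran from -0.25 on the log2 scale for SLC38A1 to 0.94 for SLC7A5, and in R1881 replicate 6 it ran from -0.34 for SLC7A11 to 0.45 for SLC43A2. Across the 10 genes, which are not independent replicates, these deviations correlated with GC content at 0.84 and 0.89. The 6 lower transporters stayed past the test after a correction for GC content, a setting in which 31.9% of 13955 genes were lower and 28.4% higher, with log2 fold changes of -1.36 for SLC43A1, -0.95 for SLC1A5 and -0.62 for SLC38A2.

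**Figure D4:**
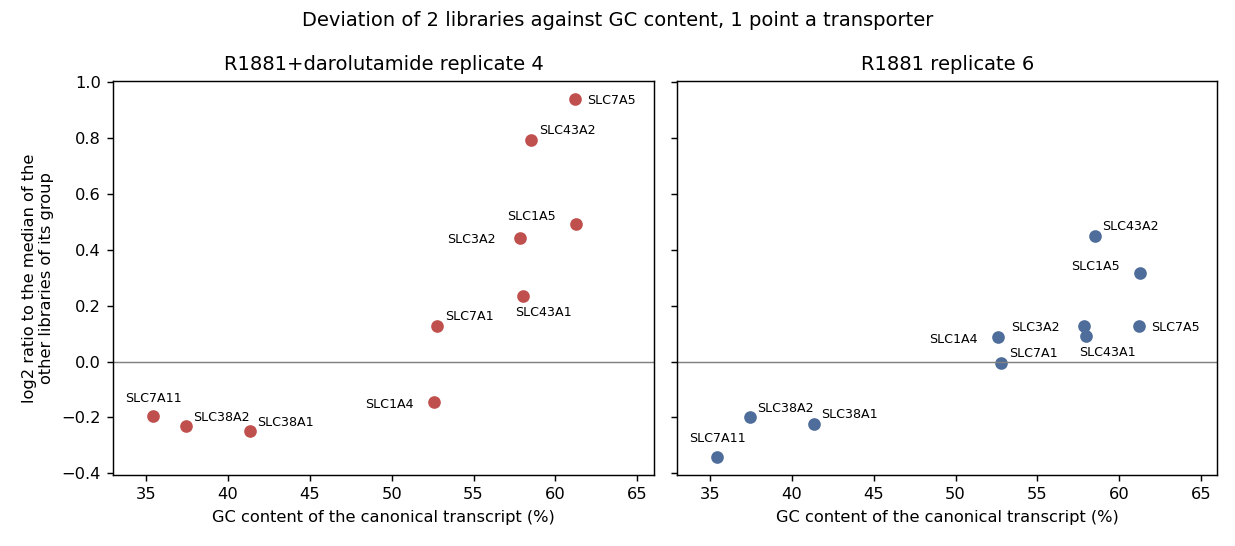
Deviation of combination replicate 4 (left) and R1881 replicate 6 (right) from the median of the other libraries of the group (y axis, log2) against the GC content of the canonical transcript (x axis, %), 1 point a transporter. The points with GC below 45% lie under 0 in both libraries, and SLC7A5 (0.94) and SLC43A2 (0.79) lie highest in combination replicate 4.

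Among all genes, those most like SLC43A1 over the 15 libraries by Pearson correlation of log2 values were PGC, SH3D21 and KRT18 (r = 0.998, 0.998 and 0.997), which averaged 1.81, 11.4 and 262 CPM with the combination and 21.9, 47.8 and 925 CPM with R1881. KRT18 is a keratin of luminal epithelium and PGC encodes progastricsin, an aspartic protease. For SLC7A5, the transporter with the smallest p on the higher side, they were SH3BP1, TMEM94 and RP4-591C20.9 at 0.907, 0.894 and 0.893. These correlations are over both groups together.

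Of 33 other plasma membrane amino acid transporters listed, 14 were in the table. Of these, 9 were higher and 3 lower while 2 did not pass, and the median log2 fold change was 0.32. Over all genes 22.8% were higher and 23.7% lower. The 9 higher genes, and so the median, include genes with means under 1 CPM in both groups. With a minimum mean of 1 CPM, 5 were higher. SLC38A4, a sodium-coupled carrier of neutral amino acids, averaged 0.900 ± 0.112 CPM with the combination and 7.16 ± 0.829 CPM with R1881, a log2 fold change of -2.45 (adjusted p = 9.28e-14), and no gene of this list fell further. SLC7A8 (LAT2), another light chain of SLC3A2, averaged 106 ± 7.64 CPM with the combination and 125 ± 6.14 CPM with R1881 (log2 fold change -0.24, adjusted p = 3.04e-04). For the taurine carrier SLC6A6 it was -0.29 (adjusted p = 0.00991), and against R1881 libraries 71 to 75 alone, where it did not pass, -0.11 (adjusted p = 0.113). Among the higher genes, SLC7A2 (CAT2), a carrier of arginine and lysine as SLC7A1 is, averaged 51.3 ± 2.61 CPM with the combination and 33.2 ± 3.10 CPM with R1881 (log2 fold change 0.62, adjusted p = 2.05e-07). SLC6A19, the neutral amino acid carrier of kidney and gut, averaged 1.50 CPM with the combination and 0.335 CPM with R1881, and SLC7A7, a light chain of SLC3A2, averaged 1.15 CPM with the combination and 0.304 CPM with R1881. SLC6A19 and SLC7A7 averaged at least 1 CPM only with the combination. Neither is among the 5 that were higher at a minimum mean of 1 CPM over all libraries. SLC1A3, a glutamate carrier, averaged 1.56 ± 0.319 CPM with the combination and 0.849 ± 0.193 CPM with R1881 (log2 fold change 0.61, adjusted p = 3.36e-04).

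Inside the cell the carriers moved in both directions, as did all genes, of which 23.7% were lower and 22.8% higher. The table held 7 lysosomal and vesicular transporters, 2 of them lower, 1 higher and 4 not past the test (median log2 fold change -0.08). SLC38A9, which senses arginine in the lysosome for mTORC1, averaged 40.6 ± 2.56 CPM with the combination and 23.7 ± 1.50 CPM with R1881 (log2 fold change 0.76, adjusted p = 1.23e-09). SLC36A4, a carrier of proline and tryptophan, and the lysosomal cystine exporter CTNS had log2 fold changes of -0.56 and -0.36. Mitochondrial carriers were lower in 5 of 11 cases and higher in 2, and 4 did not pass (median -0.10). SLC25A13, the aspartate and glutamate carrier citrin, averaged 40.0 ± 3.75 CPM with the combination and 58.9 ± 2.76 CPM with R1881, a log2 fold change of -0.56 (adjusted p = 1.12e-07). SFXN2 and SFXN3, sideroflexins of the inner membrane, had log2 fold changes of -0.39 and 0.27.

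ATF4 and its amino acid stress targets made up 23 genes, at a median log2 fold change of -0.09. The test was not passed by 14 of them, while 7 fell and 2 rose. Among all genes 46.6% passed, 23.7% on the lower side and 22.8% on the higher side. After the correction for GC content 11 of the 23 were lower and 3 higher. In that setting 31.9% of 13955 genes were lower and 28.4% higher. ATF4 itself averaged 325 ± 13.5 CPM with the combination and 349 ± 19.7 CPM with R1881, with a log2 fold change of -0.10 (adjusted p = 0.0515). ASNS, asparagine synthetase and a well known ATF4 target, averaged 110.1 ± 7.23 CPM with the combination and 116 ± 4.79 CPM with R1881 (log2 fold change -0.07, adjusted p = 0.180). ATF4 and ASNS were chosen after their values were seen. The largest falls were those of VLDLR, a lipoprotein receptor (-1.22), and GPT2, a mitochondrial alanine transaminase (-0.45), and the stress factor DDIT3 was higher (0.48). The leucine sensor SESN2 was higher too (0.38), and against R1881 libraries 71 to 75 alone it did not pass (0.29, adjusted p = 0.0560).

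Amino acid sensing by mTORC1 was covered by 19 genes, at a median log2 fold change of -0.06. Of these, 12 did not pass while 4 were lower and 3 higher. Over all genes 46.6% passed, with 23.7% lower and 22.8% higher. MTOR, the kinase, averaged 83.97 ± 3.45 CPM with the combination and 145 ± 5.87 CPM with R1881, a log2 fold change of -0.78 (adjusted p = 4.04e-12). SESN3, a sestrin that restrains mTORC1, averaged 425 ± 35.7 CPM with the combination and 220.3 ± 15.1 CPM with R1881 (log2 fold change 0.95). Its relative SESN1 averaged 406 ± 29.1 CPM with the combination and 214 ± 11.1 CPM with R1881 (log2 fold change 0.92). For FNIP2, a partner of folliculin, the value was -0.30, and against R1881 libraries 71 to 75 alone it did not pass (-0.21, adjusted p = 0.0765).

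Of 14 enzymes of glutamine, branched-chain amino acid and glutathione metabolism, 7 were lower and 3 higher and 4 did not pass (median log2 fold change -0.18). The shares over all genes were 23.7% lower and 22.8% higher. For 7 of the 14 all combination libraries lay below all R1881 libraries, as for 12.6% of all genes. GLUD1, glutamate dehydrogenase, averaged 303 ± 15.4 CPM with the combination and 609.7 ± 27.2 CPM with R1881, a log2 fold change of -1.01 (adjusted p = 2.21e-13). For GOT1, the cytosolic aspartate transaminase, it was -0.49 (adjusted p = 3.63e-09). GLS2, a glutaminase, which turns glutamine into glutamate, averaged 13.4 ± 1.11 CPM with the combination and 7.63 ± 0.560 CPM with R1881 (log2 fold change 0.78, adjusted p = 2.14e-08).

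**Figure D5:**
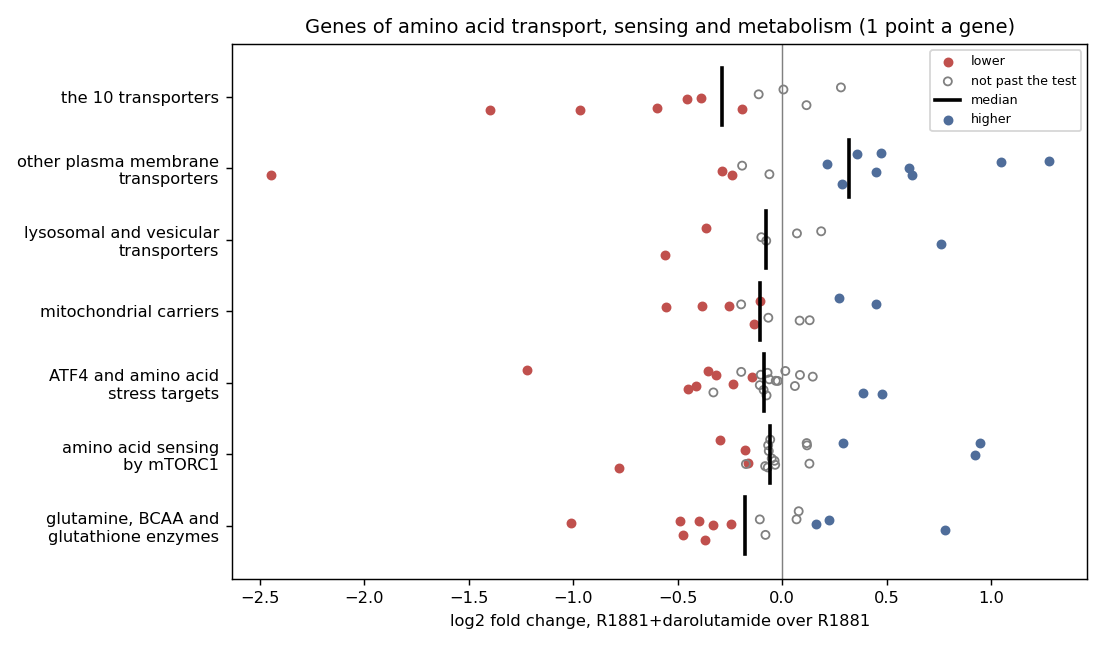
Log2 fold change of CPM + 0.5 (x axis), the combination over R1881, of each gene in the table for the 10 transporters and the 6 further lists; filled points passed the test, red for lower and blue for higher, and black bars are medians. The median of the 10 transporters is -0.29 and that of the other plasma membrane transporters is 0.32.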

How the data were processed

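RNA sequencing of LNCaP cells (5 libraries of R1881 with darolutamide, 10 of R1881) was analysed from the deposited table. Per the methods of the authors, single-end reads of 50 bases were mapped to GRCh38 (STAR), assigned to genes (featureCounts) and scaled to CPM. Versions of both, the annotation, any scaling beyond CPM, the strand setting and the filter on genes are not given in the sources used here, and bcl2fastq 2.17 stands in the processing notes of the submitters. What the authors deposited is a scaled signal for each gene: 100% of values were multiples of the value of 1 read (tolerance 0.001 reads), and the columns summed to 1005403 to 1078567. Since the table holds no plain counts, the limma test planned for scaled values was used (limma 3.58.1, R 4.3.3, trend, log2(CPM + 0.5), no filter, no covariate, all 17272 genes, Benjamini-Hochberg adjusted p under 0.05). Pairs of genes were compared by exact two-sided permutation over libraries, adjusted over 6 pairs.

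Named were the 10 transporters, KLK3 and FKBP5, the 2 lower and the 2 higher genes of largest change that passed in each further list with a mean of at least 1 CPM in a group (4 and 4 for plasma membrane transporters), and the 3 genes most like the transporter of smallest p in each direction. Some genes that this rule names are not reported here. Genes and lists were chosen with earlier results of these data known. Positions and lengths came from GENCODE 44, and shared sequence was counted in 50-base words of canonical transcripts. The alternatives were edgeR 4.0.16 and DESeq2 1.42.0 and limma-voom with quality weights on the recovered reads, other pseudocounts, a minimum mean of 1 CPM, scaling by library totals, the replicate number as a block, either R1881 run alone, the mean of the runs, and leaving out libraries. A GC correction (natural spline, 5 degrees of freedom, per library, for the 80.8% of genes with a GC value) and leaving out combination replicates 3 and 4 for ratios and overlaps were added after the data were seen. The fit was tested on simulated data. The methods of the paper call the libraries biological replicates, but nothing in the labels says that they came from separate cultures. The p-values therefore cover only the spread among the libraries, which may be technical.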

Additional observations from a re-analysis of the deposited data

Results flagged for a closer look

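Single libraries far from the rest of their group were looked for in 43 genes and both groups, 86 groups of values in all, of which chance flags about 1 in 20. There were 5 such libraries, and 4 of the 5 were combination replicate 4. SLC3A2 was at 137 CPM in combination replicate 4 and at 98.9 to 106 CPM in the other combination libraries. SLC3A2 was also at 128 CPM in R1881 replicate 6, while the other R1881 libraries were at 110.2 to 119 CPM. SLC38A1 was at 174 CPM in combination replicate 4 and at 205 to 214 CPM in the others. FKBP5 was at 133 CPM in the same library and at 154 to 162 CPM in the others, and SLC25A13 was at 33.3 CPM there and at 41.0 to 42.5 CPM in the others. Combination replicate 4 and R1881 replicate 6 are the libraries with the steepest slopes on GC content in their groups, and the part of GC content in these values was not tested.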

How the results depend on the processing

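The 6 lower transporters stayed lower and past the test under each alternative run, with 6 to 7 lower and 0 to 2 higher. Scaling by library totals raised the median log2 fold change of all genes by 0.07 and gave 3030 lower and 5326 higher genes, against 4098 and 3946. The GC correction gave 2 higher transporters, with log2 fold changes of 0.16 for SLC43A2 and 0.31 for SLC7A5, and SLC7A11 at -0.041, and 11 lower ATF4 targets. SLC3A2 passed with voom weights (-0.16) and without combination replicates 3 and 4 (-0.18). SLC7A11 was at -0.069 against R1881 libraries 51 to 55 alone, where the ratio of SLC7A5 to SLC3A2 (0.39, adjusted p = 0.0952) did not pass, and without combination replicates 3 and 4 the ratio of SLC7A11 to SLC3A2 passed (0.21). Leaving out 1 library gave 0 to 1 higher transporters, -0.055 to 0.23 for SLC43A2, 0.12 to 0.41 for SLC7A5, -0.20 to -0.081 for SLC3A2, -0.027 to 0.041 for SLC7A11, 0.32 to 0.49 for the ratio of SLC7A5 to SLC3A2 and 0.065 to 0.24 for that of SLC7A11 to SLC3A2. It gave 3 to 5 lower plasma membrane transporters and 1 to 2 higher lysosomal ones. With a minimum mean of 1 CPM, 5 plasma membrane transporters and 1 mitochondrial carrier were higher. Higher lysosomal transporters numbered 2 with voom, 2 against libraries 71 to 75, 2 against the mean of the runs, and 3 with library totals or the GC correction. Library totals gave 3 lower mitochondrial carriers and 5 higher mTORC1 genes, and libraries 71 to 75 gave 1 higher ATF4 target. The cause was not tested for any of these. Low reads limit SLC7A5 most.

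The replicate numbers did not pair the libraries: deviations of same-numbered libraries correlated at -0.14 to 0.34, and for 0 of 5 combination libraries was the R1881 library of the same number the nearest. With the number as a block, 6 transporters were lower and 0 were higher, SLC43A1 was at -1.41, and 3165 genes were lower and 3077 higher. SLC6A6 did not pass with the block (-0.25, adjusted p = 0.0690).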
